A study of Mus musculus with 12 samples.

Results

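Amino acid transporter genes were followed in mouse kidney across the first 8 days of life. The genes are the protein-coding rows of the deposited tables whose symbols begin with Slc1a, Slc3a, Slc6a, Slc7a, Slc36a, Slc38a or Slc43a and a digit, 61 of the 32692 genes listed, in 7 families. One Slc38 gene was not analysed here. The samples are kidneys of untreated wild-type (WT) mice at day 8 (5 libraries with data columns of 6 labelled samples) and at day 0 (6 libraries of 6). Genotype and lack of treatment are shared by both ages, and the labels name no strain, sex, litter or batch. Nor do they state that the libraries come from different animals, so that a p-value here speaks of the spread among libraries only. Libraries were made from total RNA depleted of ribosomal RNA, and the series asks which transcripts differ between the ages, in a study of the neonatal kidney.

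The proximal tubule takes back nearly all amino acids that the glomerulus filters. Transporters of the apical (brush border) membrane bring them in from the tubular fluid, and other transporters of the basolateral membrane pass them on to the blood. Several work only as pairs: a heavy chain, Slc3a1 (rBAT) on the apical side or Slc3a2 (CD98 heavy chain) mainly on the basolateral side, carries a transporting light chain of the Slc7 family to the membrane. Apical Slc6 transporters need accessory proteins such as Cltrn (collectrin) to reach the brush border. Other members of the same families supply growing cells with amino acids, move amino acids across the lysosomal membrane, or take up neurotransmitters.

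Library totals ranged from 21832731 to 24428652 estimated counts at day 8 and from 18222170 to 22428963 at day 0. Of 8 proximal tubule markers, 7 rose at day 8, and their summed level stood at 2173 to 2813 TPM (a level scaled for transcript length and library total) in day 8 libraries and at 685 to 1085 TPM in day 0 libraries. All 5 nephron progenitor markers fell, with summed levels of 5.60 to 7.26 TPM at day 8 and 81.7 to 99.5 TPM at day 0. All 4 markers of dividing cells fell, with 108 to 151 TPM at day 8 and 157 to 188 TPM at day 0. The kidney label is therefore met by tubule markers at both ages, while the cellular makeup differs between them. In bulk samples, fewer cells of a type and less RNA per cell cannot be told apart, and the part of these shifts in the results that follow was not tested. Liver markers summed to 4.36 to 55.2 TPM at day 8 and to 6.86 to 141 TPM at day 0, with day 0 libraries 1 to 3 at the top. Fat markers stood apart in day 8 libraries 3 to 5.

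Day 8 kidneys held more amino acid transporter RNA than day 0 kidneys. The 61 genes summed to 1688 ± 137 TPM at day 8 (SD, n = 5) and to 1015 ± 133 TPM at day 0 (SD, n = 6), and took 0.353% to 0.381% of the counts at day 8 against 0.258% to 0.301% at day 0. Of the 61, 46 had enough counts to be tested and 15 did not. In the test of day 8 against day 0 (edgeR's quasi-likelihood test on counts, p-values adjusted by Benjamini-Hochberg over 18763 genes, threshold 0.05), 22 of the 46 rose, 15 fell and 9 were not called. Among all tested genes, 57.6% were called, 27.5% as higher and 30.1% as lower. The corresponding shares of the tested transporters were 80.4%, 47.8% and 32.6%. The 46 are not all members, and the share called depends on their counts. Their median log2 fold change was 0.13, against -0.01 over all tested genes. CPM values (counts scaled to a common library total after TMM normalisation) did not overlap between the ages for 19 members that were higher and 13 that were lower at day 8. These were 69.6% of the 46, against 40.5% of all tested genes (19.1% higher and 21.4% lower).

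The families moved unevenly. In the Slc3 family both heavy chains rose. Of the 13 tested Slc6 genes, 9 rose (Slc6a7 among them on few counts), 1 fell and 3 were not called, with a median log2 fold change of 0.80. Of the 13 tested Slc7 genes, 4 rose, 6 fell (Slc7a3 among them on few counts) and 3 were not called, with a median of -0.23. In the Slc38 family, 2 of 7 rose, 3 fell and 2 were not called. In the Slc1 family 2 of 5 rose and 2 fell, in the Slc36 family 2 of 3 rose and 1 fell, and in the Slc43 family 1 of 3 rose and 2 fell. By summed TPM, the Slc3 genes made up 21.5% of all transporter RNA at day 8 and 16.2% at day 0. The Slc38 genes made up 12.3% at day 8 and 22.5% at day 0. On the scale log2(TPM + 1), where the median of all genes shifts to 0.13, 23 of 42 tested members were higher and 9 lower. Over the 16866 genes tested on that scale, 5441 were higher and 2477 lower, so fewer lower calls were not particular to the transporters.

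**Figure D1:**
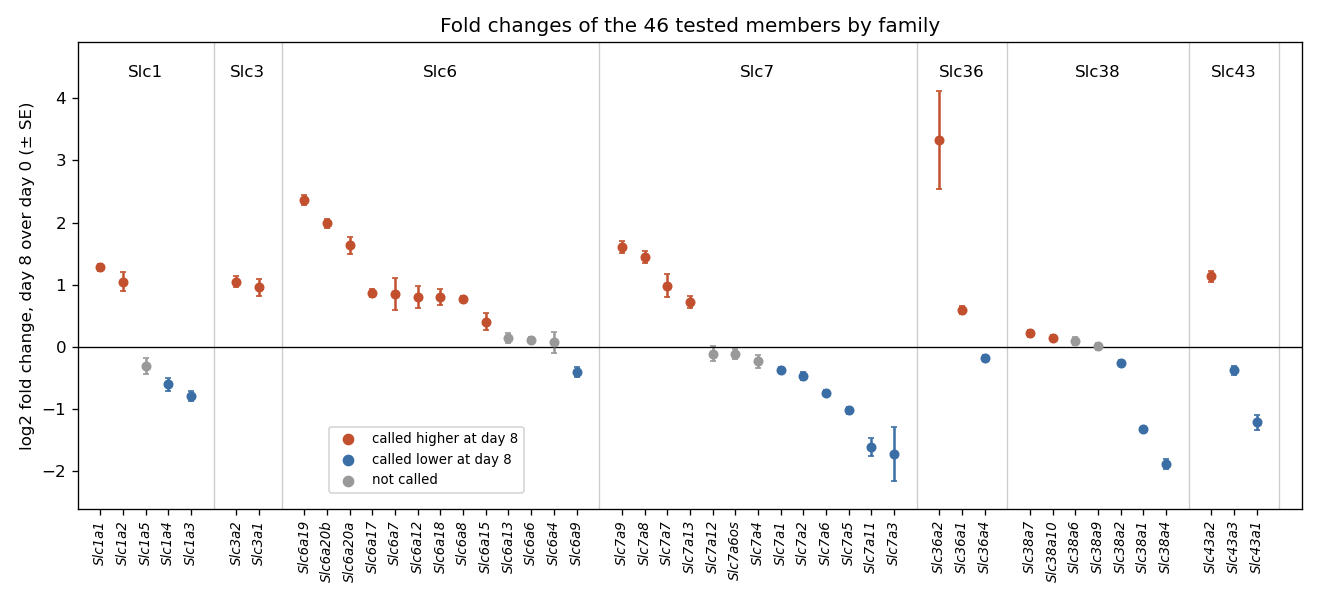
Log2 fold change of day 8 over day 0 with its standard error (vertical axis) for each of the 46 tested transporter genes, grouped by family from left to right. Colours mark genes called higher, called lower or not called. The Slc6 genes sit mostly above 0, while the Slc7 genes run from 1.61 for Slc7a9 to -1.73 for Slc7a3, the last on few counts.

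By site, the genes assigned to the tubule's apical or basolateral membrane were called higher, except Slc6a13. Sites were assigned from textbook knowledge of the tubule, with earlier results of these data known. The lists may leave out other members that work at tubule membranes, so the counts hold for the listed genes only. All 8 genes assigned to the apical membrane rose, with a median log2 fold change of 1.44, and their summed level was 405 to 513 TPM in day 8 libraries against 158 to 268 TPM in day 0 libraries. Of the 6 genes assigned to the basolateral membrane, 5 rose, with a median over the 6 of 1.02, and their summed level was 481 to 635 TPM at day 8 against 188 to 322 TPM at day 0. Neither pair of ranges overlapped. Apical genes took 27.2% of the transporter RNA at day 8 and 18.8% at day 0, and basolateral genes took 33.1% at day 8 and 23.3% at day 0. Without day 8 libraries 3 to 5, or without day 0 libraries 1 to 3, 7 of the 8 apical genes rose, Slc36a2 being the one lost, and the basolateral count stayed at 5. Of the 32 tested genes with neither site, 9 rose, 15 fell and 8 were not called, with a median of -0.20. Over all tested genes, 27.5% were called higher and 30.1% lower.

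**Figure D2:**
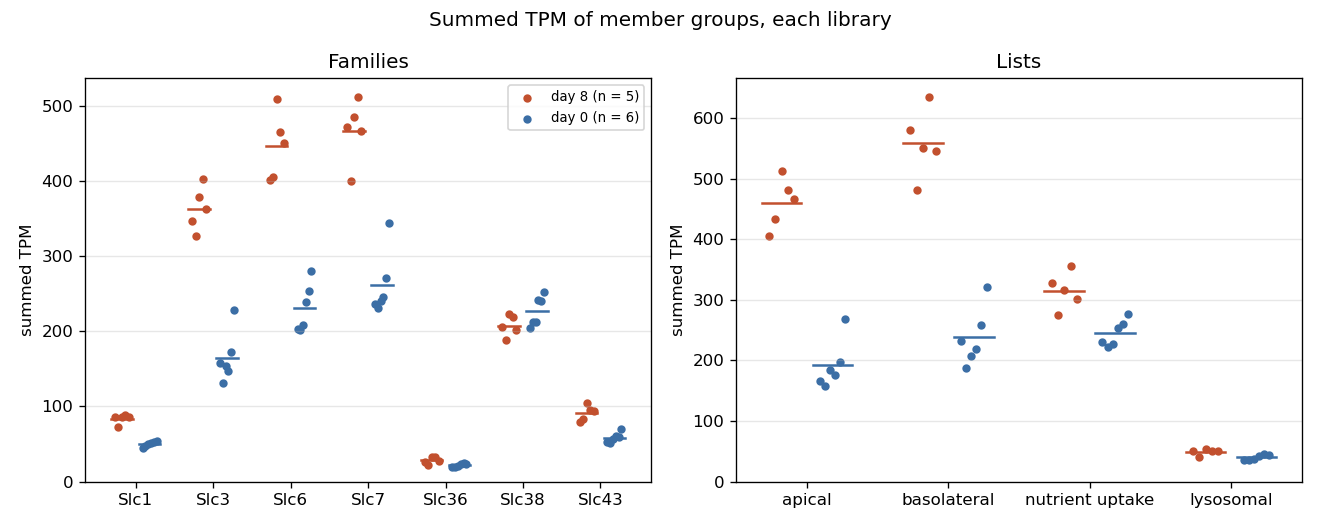
Summed TPM of each group of transporter genes (vertical axis) in single libraries, with day 8 left of day 0 in each panel; each point is a library and the bar is the group mean. The apical and basolateral sums of the 5 day 8 libraries all lie above those of the 6 day 0 libraries, while the nutrient uptake sums overlap.

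Among the apical transporters the neutral amino acid carrier Slc6a19, the gene mutated in Hartnup disorder, rose most among those whose ages did not overlap. Its level was 37.6, 31.5, 44.4, 45.1 and 38.03 TPM in the 5 day 8 libraries, and had a minimum of 6.62, a median of 7.79 and a maximum of 8.77 TPM in the 6 day 0 libraries. Every day 8 library stood above every day 0 library. The log2 fold change was 2.37 ± 0.08 (SE), 5.16-fold, with an adjusted p of 6.4e-12 in edgeR. Its close relative Slc6a18, which carries neutral amino acids such as glycine, lies beside it on chromosome 13 (GRCm38, 73661752 to 73678023 for Slc6a18 and 73679745 to 73704865 for Slc6a19). Slc6a18 measured 78.4, 103, 105, 94.8 and 96.6 TPM at day 8, and 39.98, 42.3 and 72.4 TPM as the lowest, median and highest at day 0. The ages did not overlap, and the log2 fold change was 0.80 ± 0.13 (adjusted p = 0.000289, edgeR). Day 0 replicate 6 held the highest of those values; without it the log2 fold change of Slc6a18 was 0.96. The accessory gene Cltrn rose, at a log2 fold change of 1.37.

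The cystine and dibasic amino acid system, whose loss causes cystinuria, consists of the light chain Slc7a9 and the heavy chain Slc3a1. Slc7a9 measured 51.7, 47.2, 64.5, 61.2 and 55.6 TPM at day 8 against a lowest, median and highest of 14.7, 18.6 and 21.0 TPM at day 0. Slc3a1 measured 149, 168, 196, 184 and 183 TPM at day 8 against 65.7, 74.6 and 126 TPM at day 0. Neither gene's ages overlapped. Slc7a9 rose 3.05-fold (log2 fold change 1.61 ± 0.10 SE, adjusted p = 4.87e-09, edgeR) and Slc3a1 rose 1.95-fold (0.96 ± 0.14, adjusted p = 0.000141). Slc7a13, a light chain for acidic amino acids and cystine that also pairs with Slc3a1, averaged 22.2 ± 2.81 TPM at day 8 (SD, n = 5) and 12.3 ± 1.75 TPM at day 0 (SD, n = 6). It rose less, and the log2 fold change was 0.72 ± 0.09 (adjusted p = 9.51e-06, edgeR). Its relative Slc7a12 was not called, at 65.0 ± 8.98 TPM at day 8 and 62.4 ± 14.03 TPM at day 0; the counting method could split reads between Slc7a12 and Slc7a13, which are related in sequence. Exons of Slc3a1 overlap those of Prepl on the opposite strand, and whether the counting used strand is not stated.

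The acidic amino acid transporter Slc1a1 rose as well. It measured 63.0, 54.4, 62.2, 61.0 and 61.4 TPM at day 8, with 17.1, 22.0 and 25.0 TPM as the lowest, median and highest at day 0. Its ages did not overlap and its log2 fold change was 1.28 ± 0.05 (adjusted p = 2.76e-11, edgeR). The proline transporter Slc6a20a averaged 7.74 ± 1.30 TPM at day 8 and 2.36 ± 0.508 TPM at day 0, a log2 fold change of 1.63 ± 0.14 (adjusted p = 7.9e-08, edgeR). Its paralog Slc6a20b, next to it on chromosome 9 and without a site on the lists, was the more abundant. Slc6a20b measured 61.7, 67.9, 93.2, 84.5 and 82.2 TPM at day 8 against 12.9, 17.6 and 22.4 TPM as the lowest, median and highest at day 0. Its ages did not overlap, and its log2 fold change was 1.99 ± 0.07 (adjusted p = 2.63e-11, edgeR). The paralogs may share reads, and exons of Slc6a20a overlap Ccr9 and those of Slc6a20b overlap Sacm1l on the opposite strand.

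**Figure D3:**
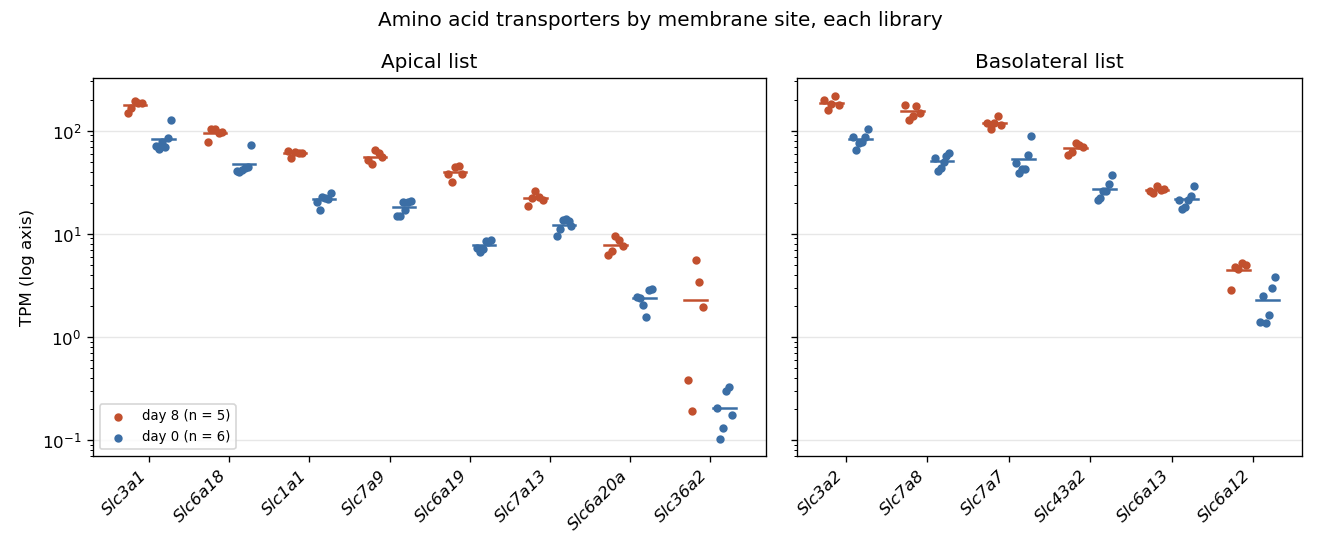
TPM (log axis) of the apical and basolateral transporter genes in single libraries, with day 8 left of day 0 for each gene; points are libraries and bars are means. The ages are apart for each gene except Slc36a2, an apical gene spread widely at day 8, and the basolateral genes Slc6a13 and Slc6a12.

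Slc36a2, the remaining apical gene, was at a low level and rested on a few libraries. The gene encodes a proton-coupled carrier of glycine and proline that serves the proximal tubule and is also known as a surface marker of brown and beige fat cells. Its CPM was 0.687, 0.393, 8.81, 5.58 and 3.21 in day 8 replicates 1 to 5, against a range of 0.219 to 0.521 at day 0. Replicates 3 to 5 stood above all others, while replicate 2 fell within the day 0 range. The log2 fold change was 3.33 ± 0.79 (adjusted p = 0.00444, edgeR). Without day 8 libraries 3 to 5 it was 0.57 with an adjusted p of 0.333. In limma-voom the call was also lost, with an adjusted p of 0.0758.

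The brown fat gene Ucp1, which uncouples mitochondria, measured 3.44, 3.05, 33.2, 25.7 and 12.3 CPM in the same day 8 libraries and at most 0.0548 CPM at day 0. Libraries therefore ranked alike for Ucp1 and Slc36a2 at day 8. Cidea measured 0.515, 0.491, 8.31, 4.17 and 2.85 CPM, and Plin1 1.29, 1.23, 16.4, 11.4 and 7.38 CPM, in day 8 replicates 1 to 5, also in that order. Of 5 tested fat markers, 4 rose, while the fat and endothelial gene Fabp4 was not called, and Cfd was not tested. The fat markers summed to 73.3 to 178 TPM at day 8 and to 74.8 to 103 TPM at day 0. The part of fat in the Slc36a2 result was not tested.

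**Figure D4:**
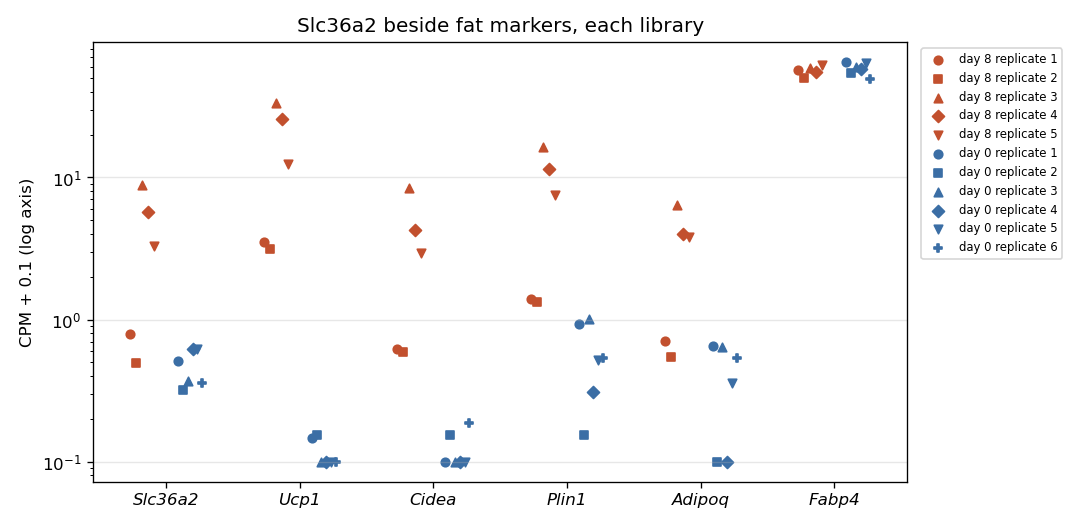
CPM + 0.1 (log axis) of Slc36a2 and of 5 fat markers in single libraries, day 8 left of day 0. In day 8 libraries 3 to 5 Slc36a2 reached 3.21 to 8.81 CPM and Ucp1 12.3 to 33.2 CPM, above the other day 8 libraries for both.

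On the basolateral side the heavy chain Slc3a2 was the most abundant member of all at day 8. It measured 198, 159, 183, 219 and 179 TPM at day 8, with a lowest, median and highest of 65.6, 82.1 and 103 TPM at day 0. The ages were apart, and the log2 fold change was 1.05 ± 0.09 (adjusted p = 3.44e-07, edgeR). Slc7a8, a light chain for neutral amino acids, measured 178, 127, 140, 174 and 150 TPM at day 8 against 40.8, 51.6 and 60.2 TPM as the lowest, median and highest at day 0. By mean level it ranked 3 among the members at day 8 and 8 at day 0. Its log2 fold change was 1.45 ± 0.10 (adjusted p = 6.1e-08, edgeR), and its ages did not overlap.

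Slc7a7, the light chain that exports dibasic amino acids and is mutated in lysinuric protein intolerance, lies near Slc7a8 on chromosome 14 (GRCm38, 54369442 to 54417780, against 54722209 to 54781946 for Slc7a8). It measured 118, 104, 119, 138 and 115 TPM at day 8 and had a lowest, median and highest of 39.1, 45.6 and 89.2 TPM at day 0. The ages were apart, although day 0 replicate 6 came closer to the day 8 libraries than the others. The log2 fold change was 0.98 ± 0.19 (adjusted p = 0.00115, edgeR), and 1.18 without day 0 replicate 6. Exons of Slc7a7 overlap Oxa1l on the opposite strand.

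Slc43a2, a carrier of large neutral amino acids that needs no partner, measured 57.8, 61.5, 75.3, 72.9 and 69.5 TPM at day 8 against 21.2, 26.1 and 37.3 TPM as the lowest, median and highest at day 0. Its ages did not overlap, and the log2 fold change was 1.14 ± 0.08 (adjusted p = 8.08e-08, edgeR). The osmolyte transporter Slc6a12, which takes up betaine in the medulla, averaged 4.47 ± 0.925 TPM at day 8 and 2.27 ± 0.988 TPM at day 0, and the log2 fold change was 0.81 ± 0.18 (adjusted p = 0.000999, edgeR). Its ages were apart in CPM but overlapped in TPM, with 2.88 TPM as the lowest at day 8 and 3.80 TPM as the highest at day 0. Its neighbour on chromosome 6, Slc6a13, a carrier of GABA and betaine, was the basolateral gene that was not called. Slc6a13 averaged 26.6 ± 1.47 TPM at day 8 and 21.6 ± 4.10 TPM at day 0, and the log2 fold change was 0.15 ± 0.08 (adjusted p = 0.131, edgeR). It was called as higher without day 0 replicate 6, at 0.23 with an adjusted p of 0.00425, and on the log2(TPM + 1) scale, at 0.31 with an adjusted p of 0.0288. The basolateral aromatic amino acid carrier Slc16a10, from outside the 7 families, rose by a log2 fold change of 1.08.

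Levels of partners and relatives were then set against each other within each library, as log2 ratios of TPM, which do not depend on the library total. Of 10 ratios, 7 differed between the ages by the exact two-sided permutation test over libraries, each at the smallest p that 462 arrangements allow (0.00216, adjusted 0.00309 over the 10 ratios) and without overlap. The ratio of Slc7a8 to Slc7a5, the light chain of growing cells, moved most: it was 18.2 to 29.5 at day 8 and 3.77 to 5.12 at day 0. On the log2 scale that ratio was higher at day 8 by 2.46. The ratio of Slc7a5 to the heavy chain Slc3a2 differed by -2.05, and that of Slc7a8 to Slc3a2 by 0.41. In TPM, Slc7a5 was apart downward, while Slc7a8 and Slc3a2 were apart upward. The ratios of Slc7a8 to Slc7a5 and of Slc7a5 to Slc3a2 were therefore bound to be apart and add no support of their own. Several of the 10 ratios also share genes and are not independent. Light chain RNA for the same heavy chain thus changed in opposite directions relative to it.

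On the apical side, the ratio of Slc7a9 to Slc3a1 was 0.282 to 0.347 at day 8 and 0.167 to 0.259 at day 0, a log2 difference of 0.52. That of Slc7a13 to Slc7a9 differed by -0.78, so that Slc7a9 gained on the other Slc3a1 light chain. The ratio of Slc7a13 to Slc3a1 differed by -0.26 with overlapping ages (adjusted p = 0.219 over the 10 ratios, exact permutation test). Slc6a19 gained on its neighbour Slc6a18, with ratios of 0.307 to 0.479 at day 8 and 0.121 to 0.193 at day 0, a log2 difference of 1.29. Relative to the accessory gene Cltrn it gained 0.81. For the remaining ratios the ages overlapped: Slc7a7 to Slc3a2 differed by 0.02 (adjusted p = 0.907) and Slc3a1 to Slc3a2 by -0.07 (adjusted p = 0.690, both by the exact permutation test).

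**Figure D5:**
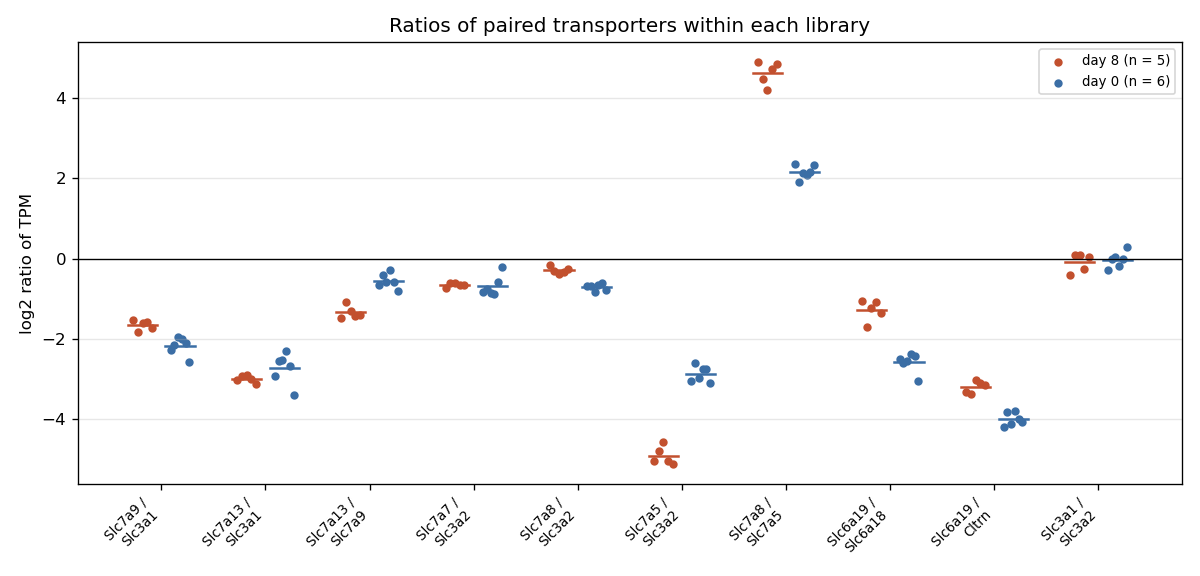
Log2 ratio of TPM within each library (vertical axis) for the 10 pairs of genes, with day 8 left of day 0; points are libraries and bars are means. The ages are apart for 7 pairs and overlap for Slc7a13 to Slc3a1, Slc7a7 to Slc3a2 and Slc3a1 to Slc3a2.

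Transporters through which growing cells take up amino acids mostly fell. Of 7 genes on that list, 5 fell, Slc3a2 rose as described, and the glutamine carrier Slc1a5 was not called, at 16.4 ± 2.28 TPM at day 8 and 18.8 ± 2.14 TPM at day 0. The share called, 85.7%, rests on 7 genes. Over all tested genes 57.6% were called, 30.1% as lower. Slc1a5 had a log2 fold change of -0.31 (adjusted p = 0.0525, edgeR) and was called lower in 6 alternatives, DESeq2 among them (adjusted p = 0.0299). Slc7a5, which imports large neutral amino acids as the partner of Slc3a2, measured 6.03, 5.73, 7.69, 6.62 and 5.18 TPM at day 8 and had a lowest, median and highest of 9.77, 11.2 and 12.9 TPM at day 0. All day 8 libraries were below all day 0 libraries, and the log2 fold change was -1.02 ± 0.06 (adjusted p = 1.9e-09, edgeR). Slc38a1, a sodium-coupled glutamine carrier, measured 13.9, 12.1, 14.6, 14.8 and 14.2 TPM at day 8 against 27.1, 32.0 and 36.9 TPM as the lowest, median and highest at day 0. It was also apart, at -1.33 ± 0.04 (adjusted p = 1.2e-12, edgeR).

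The cystine-glutamate exchanger Slc7a11 was low at both ages, with 0.254 ± 0.0472 TPM at day 8 and 0.746 ± 0.1196 TPM at day 0, and fell by a log2 fold change of -1.61 ± 0.14 (adjusted p = 9.29e-08, edgeR). The arginine and lysine carrier Slc7a1 fell by 0.37 on the log2 scale and Slc38a2, a stress-responsive carrier of small neutral amino acids, by 0.25. The calls of Slc7a1 and Slc38a2 depended on the scale: on log2(TPM + 1) their changes were -0.16 (adjusted p = 0.186, limma) and -0.13 (adjusted p = 0.158, limma). On that scale Slc7a11 was under the minimum of 1 TPM, and 2 of the 6 tested genes of the list fell. The summed level of the list was 274 to 355 TPM at day 8 and 221 to 277 TPM at day 0, of which Slc3a2 averaged 187 TPM at day 8 and 82.6 TPM at day 0. All 4 markers of dividing cells fell too, as given above, and their part in these results was not tested.

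Of 10 genes of the amino acid stress response, which controls several of these transporters, 2 rose, 4 fell and 4 were not called, with a median log2 fold change of -0.17. The share called, 60.0%, was close to the 57.6% of all tested genes. Asparagine synthetase, Asns, fell by 0.78, Atf5 by 0.50, and the serine synthesis genes Psat1 and Phgdh by 0.28 and 0.25 on the log2 scale. Sesn2, a leucine sensor, and Trib3 rose, at 0.57 and 0.74. The response's main transcription factor gene, Atf4, was not called, at -0.09. Among genes that serve transport from outside the families, Slc16a10 and Cltrn rose as given above, the peptide transporter Slc15a2 rose at 0.77 and the tubular transcription factor gene Hnf4a at 0.76, while the peptide transporter Slc15a1 was not called.

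Further members of the Slc7 and Slc43 families fell or were not called. Slc7a6, which exchanges dibasic for neutral amino acids, averaged 12.2 ± 2.39 TPM at day 8 and 17.8 ± 2.77 TPM at day 0, a log2 fold change of -0.74. The cationic amino acid carriers Slc7a2 and Slc7a3 fell by 0.46 and 1.73 on the log2 scale. Slc7a3 rested on 23 counts over the day 8 libraries and 84 over the day 0 libraries, and its ages overlapped. Its CPM was at most 0.344 at day 8, against a median of 0.747 at day 0. With day 0 replicate 1, 2, 4, 5 or 6 left out, 12 Slc7 genes were tested in place of 13, and 5 fell. Slc7a3 thus met the low-count filter through day 0, where it is high, and its fall lends no support. Without day 8 libraries 3 to 5 its adjusted p was 0.0780. The call of Slc7a2 was lost on the log2(TPM + 1) scale (-0.20, adjusted p = 0.160, limma). Slc43a1, a carrier of large neutral amino acids like Slc43a2, went the other way from it: it averaged 1.49 ± 0.186 TPM at day 8 and 3.25 ± 0.348 TPM at day 0, a log2 fold change of -1.22 ± 0.12 (adjusted p = 3.94e-07, edgeR). Slc43a3, a nucleobase rather than an amino acid carrier, fell by 0.38. Slc7a4 and Slc7a6os were not called. Slc7a6os was counted by its symbol only: it is a neighbouring gene on the strand opposite to Slc7a6 and not a transporter.

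The largest fall among members without overlap was that of Slc38a4, a carrier of small neutral amino acids that is imprinted in the mouse and abundant in liver. It measured 7.34, 5.16, 6.96, 6.64 and 5.95 TPM at day 8 and had a lowest, median and highest of 19.2, 21.2 and 22.5 TPM at day 0. The ages lay far apart, and the log2 fold change was -1.88 ± 0.08 (adjusted p = 1.96e-11, edgeR). In CPM, Slc38a4 at day 0 ran from 60.3 in replicate 6, whose liver marker sum was the lowest at 6.86 TPM, to 79.8 in replicate 2, whose sum was the highest at 141 TPM. Day 0 replicate 1, with a sum of 138 TPM, held 68.5 CPM, below replicate 3 at 71.2 CPM and a sum of 109 TPM. At day 8 Slc38a4 ran from 17.5 to 22.0 CPM. The 22.0 CPM was in day 8 replicate 1, with a liver marker sum of 7.36 TPM. Day 8 replicate 3 held 18.1 CPM at the highest sum of that age, 55.2 TPM. The part of liver RNA in the result was not tested. Slc38a1, Slc38a2 and Slc38a4 lie together on chromosome 15 (GRCm38, 96571418 to 97055956 from the start of Slc38a1 to the end of Slc38a4), and all 3 fell. The remaining Slc38 genes changed little. Slc38a10 rose by a log2 fold change of 0.15 and Slc38a7, a glutamine carrier of the lysosome, with 0.22, while Slc38a6 and the lysosomal arginine sensor Slc38a9 were not called. The call of Slc38a10 was lost with scaling by library size only, at 0.08, and without day 8 libraries 3 to 5. That of Slc38a7 was lost only without day 8 libraries 3 to 5 (adjusted p = 0.0564, edgeR).

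Of the 4 lysosomal genes, 2 rose, 1 fell and 1 was not called, and the median log2 fold change was 0.11. The share called, 75.0%, rests on 4 genes, against 57.6% of all tested genes. Slc36a1, a proton-coupled exporter of small neutral amino acids, measured 13.9, 12.04, 14.2, 15.1 and 14.3 TPM at day 8, with 6.73, 7.68 and 10.6 TPM as the lowest, median and highest at day 0. Its ages were apart, at 0.59 ± 0.06 (adjusted p = 1.18e-06, edgeR). Its relative Slc36a4, a carrier of proline and tryptophan, fell by 0.17 on the log2 scale (adjusted p = 0.00885, edgeR) with overlapping ages. That call was lost on the log2(TPM + 1) scale (adjusted p = 0.246, limma) and without day 0 libraries 1 to 3.

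Transporters best known for neurotransmitters were scarce. Of the 13 on that list, 7 were not tested, and the list summed to 18.1 to 27.8 TPM at day 8 and 17.8 to 26.1 TPM at day 0. Among the 6 tested, 3 rose, 2 fell and the serotonin transporter Slc6a4 was not called. The share called, 83.3%, rests on these 6 genes, against 57.6% of all tested genes. Slc6a17, a transporter of synaptic vesicles, averaged 10.6 ± 1.37 TPM at day 8 and 5.14 ± 0.937 TPM at day 0, and the log2 fold change was 0.86. The glutamate transporter Slc1a3 averaged 3.32 ± 0.733 TPM at day 8 and 4.88 ± 0.947 TPM at day 0 and fell by 0.79, and the glycine transporter Slc6a9 fell by 0.40. The proline transporter Slc6a7 rose by a log2 fold change of 0.85 on 100 counts over the day 8 libraries and 59 over the day 0 libraries. The call was lost without day 8 libraries 3 to 5 (adjusted p = 0.150) and without day 0 libraries 1 to 3 (adjusted p = 0.0925, both edgeR). Slc6a7 held 16 to 28 counts in single day 8 libraries and 6 to 13 in single day 0 libraries. The gene thus met the low-count filter through day 8, where it is high, and its rise lends no support. With the alternative filter at 1 CPM it was not tested, and 2 of the 5 tested genes of the list rose. The glutamate transporter Slc1a2 rose 2.07-fold in counts (log2 fold change 1.05 ± 0.16, adjusted p = 3.69e-05, edgeR). Its TPM did not differ in that way, at 0.936 ± 0.784 at day 8 and 0.887 ± 0.599 at day 0, and on log2(TPM + 1) without a filter its change was 0.01 (adjusted p = 0.978, limma).

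The remaining tested members belong to the Slc1 and Slc6 families. Slc6a8, which takes up creatine, rose by a log2 fold change of 0.77, at 79.3 ± 5.46 TPM at day 8 and 40.2 ± 5.41 TPM at day 0. The taurine transporter Slc6a6 was abundant at both ages, with 89.8 ± 12.1 TPM at day 8 and 72.7 ± 8.78 TPM at day 0, and was not called (log2 fold change 0.11, adjusted p = 0.0564, edgeR). It was called as higher in several alternatives, on the log2(TPM + 1) scale among them. Slc6a15, a carrier of branched-chain amino acids and proline, rose at 0.41. The call was lost without day 8 replicate 3, without day 8 libraries 3 to 5, without day 0 libraries 1 to 3 and on log2(TPM + 1) without a filter. The alanine and serine carrier Slc1a4 fell by 0.60.

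The 15 members that were not tested held between 1 and 84 counts over the 11 libraries and never exceeded 0.619 TPM. Among them were Slc1a6, Slc1a7, Slc6a2, Slc6a3, Slc6a5, Slc6a11, Slc6a14, Slc7a10, Slc7a14, Slc7a15, Slc36a3, Slc38a5, Slc38a8 and Slc38a11. Without the filter on low counts all 61 members were tested. Of the 15, 5 were then called lower and 0 higher in edgeR. Slc6a2, Slc6a5, Slc6a11 and Slc38a8 were among the 5, all named after their values were seen. Over all 32635 genes of that fit, 5777 were lower and 5350 higher. The lower calls rest on few counts and lend no support. Slc6a5 held 9 counts at day 0 and 0 at day 8, and Slc38a8 held 16 at day 0 and 1 at day 8. The count of lower genes was then 5 of 19 in the Slc6 family and 6 of 13 on the neurotransmitter list.

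Members that lie within 500 kb of each other formed 10 neighbourhoods with 23 genes. Beside the pairs and the trio named above, Slc43a1 and Slc43a3 on chromosome 2 both fell. Slc36a1 and Slc36a2 on chromosome 11 both rose, Slc36a2 through the few libraries described above. Elsewhere a called member stood beside a tested one that was not called, as Slc6a12 beside Slc6a13 and Slc7a6 beside Slc7a6os. In several neighbourhoods a member that was called stood beside one that was not tested, as Slc7a9 beside Slc7a10 on chromosome 7 and Slc6a18 and Slc6a19 beside Slc6a3. The size of the change differed between neighbours too, as the values of Slc6a18 and Slc6a19 show.

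Day 0 replicate 6 held the highest day 0 level of Slc3a1, Slc6a18, Slc7a7 and Slc7a12, the last at 88.9 TPM. In TPM, other members were highest there too, among them Slc1a1, Slc3a2, Slc7a8 and Slc7a9, while Slc7a13 was not. In CPM, Slc7a9 was still highest there, but Slc1a1, Slc3a2 and Slc7a8 were not. The proximal tubule marker Slc22a6, not called between the ages, stood there at 108 TPM against 53.9 to 80.3 TPM in the other day 0 libraries. The markers Lrp2, Cubn, Slc34a1, Slc5a2, Slc13a3 and Aqp1 were also highest in that library in TPM, while Slc22a8 was not. The same held in CPM except for Slc5a2, which was highest in day 0 replicate 1. Over the 42 members with a mean of at least 1 TPM, the coefficient of variation of CPM had a median of 8.35% at day 8 and 9.25% at day 0. Slc1a1 varied by 2.17% at day 8 and 8.83% at day 0, while Slc7a7 varied by 8.42% at day 8 and 30.8% at day 0. Slc38a2 varied by 6.30% at day 8 and 1.12% at day 0.

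Sequences next to the start sites were read for letters that HNF4 factors are known to bind, since Hnf4a rose with the apical and basolateral members, and for those of the amino acid response. RefSeq (GRCm38.p6) gave promoter windows, 250 bases before to 50 after a start, for 44 of the 61 members, 65 windows in all. The HNF4 letters CAAAGTCCA, on either strand, were in 1 of the 65 windows (1.54%), that of Slc3a1, against 0.475% of all 32851 windows. With only 1 window matched, no difference can be read from these shares. The amino acid response letters TGATGNAAT were in none of the members' windows, and in 0.965% of all. The match in the apical heavy chain is shown 5′ to 3′ on the gene's strand, with the matched letters in capitals.
Slc3a1, chr17:85028300-85028324, plus strand: tggctggaCAAAGTCCAgccatgat
The letters begin 39 bases before the RefSeq start of Slc3a1. This is a match of letters in a window and shows no binding.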

How the data were processed

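RNA-seq libraries of kidneys were compared between day 8 (n = 5) and day 0 (n = 6); another day 8 sample is not used here, and tests planned on 6 against 6 ran on 5 against 6. The authors deposited estimated counts per gene, which were rounded to whole numbers, and TPM values, which they had scaled for transcript length and library total. Per the submitters' processing notes, FastQC, fastp, DRAGEN, Picard and the build mm10 were used; the gene annotation and strand setting of the counting are not given in the sources used here. Per the labels' protocols, libraries came from Illumina's stranded total RNA kit with ribosomal RNA removal.

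Counts were tested with edgeR 4.0.16 (TMM, filterByExpr, robust quasi-likelihood fit, age as the only term, adjusted p under 0.05) in R 4.3.3, and the step was tested on simulated data. Ratios used numpy 2.4.6 and pandas 2.3.3 in Python 3.11.15, and figures matplotlib 3.10.9. Alternatives were DESeq2 1.42.0, limma 3.58.1 (voom, and log2 TPM with pseudocounts of 1 and 0.1, for genes with a mean of at least 1 TPM), other scalings and filters, and leaving out libraries. Coordinates come from GENCODE annotation on GRCm38, which mm10 denotes.

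The members and lists were chosen with earlier results of these data known. Genes given in full are those with an apical or basolateral site and, from each family, the 2 most raised and the 2 most lowered called members and the most abundant one; other members are named to account for them. Results for some genes on these lists are not reported here.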

Additional observations from a re-analysis of the deposited data

Results flagged for a closer look

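In 62 groups of libraries (31 genes at 2 ages), 4 had a library whose gap to its nearest neighbour was large for the group's range by Dixon's criterion at the 95% level; chance gives about 1 in 20. Slc3a1 stood at 215 CPM in day 0 replicate 6, against 118 to 153 CPM in the other day 0 libraries. Slc6a18 stood at 157 CPM in the same library, against 91.3 to 101 CPM in the others. Slc38a4 stood at 22.0 CPM in day 8 replicate 1, against 17.5 to 18.1 CPM in the other day 8 libraries. Slc6a13 stood at 42.8 CPM in day 8 replicate 2, against 39.5 to 40.3 CPM.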

How the results depend on the processing

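Of the 37 calls, 25 were tested and kept in every one of 23 alternatives, 16 higher and 9 lower; Slc7a11 was kept in those that tested it. Of the alternatives, leaving out day 8 libraries 3 to 5, leaving out day 0 libraries 1 to 3 and Xist as a covariate were chosen after seeing the data. The number of members called lower, 15, was 9 with log2(TPM + 1) and 9 with log2(TPM + 0.1), with 42 members tested, and 20 without a filter on low counts, with 61 tested. Over all genes, 5646 were called lower in the main fit, 2477 with log2(TPM + 1) and 2474 with log2(TPM + 0.1). The ratio of Slc7a7 to Slc3a2 differed by -0.023 from counts plus 0.5 in place of TPM, and by -0.0192 to 0.12 on leaving out each library. On leaving out each library, Slc3a1 to Slc3a2 differed by -0.12 to 0.0144 and Slc7a13 to Slc3a1 by -0.39 to -0.18, the lower end without day 0 replicate 6 (adjusted p = 0.0298 over the 10 ratios, exact permutation test). The causes were not tested. No paired analysis was possible because the labels give no replicate numbers that the ages share. The filter on low counts left 15 members untested, and counts of Slc7a3, Slc6a7 and Slc36a2 were low.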
